A study of Homo sapiens with 2 samples.

Results

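The barcodes described here are the 513 of 2804 kept barcodes (18.3%, exact binomial 95% interval 16.9% to 19.8%) marked by the zinc transporter gene SLC30A8, the cancer-testis gene MAGEA10 and the noncoding genes LINC01194 and GRM7-AS3. They come from 1 capture of 5 established human lung adenocarcinoma cell lines (HCC827, H2228, H1975, H838 and A549), each grown on its own, frozen and mixed in equal parts, of which the 80% fraction of the capture tube was read as 1 RNA and 1 ATAC library. No line was treated, no label ties a barcode to a line, and all 3298 barcodes of the joint matrix carry both profiles. Kept barcodes had 1000 or more RNA molecules (UMIs), 1000 or more peak counts and a mitochondrial share of UMIs of 20% or less.

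Members were chosen by measured RNA: at least 2 UMIs of the 4 marker genes together, and at least 70% of all UMIs in 5 such marker sums. The same rule with other markers gave 746 barcodes marked by RBFOX3 and AKR1B10, 400 by S100A9 and CST1, 297 by GRIA4 and LINC01980 and 250 by DHRS2 and ZNF676. These are called the SLC30A8, RBFOX3, S100A9, GRIA4 and DHRS2 classes below, and 598 kept barcodes met no rule. There are no replicates, so no test was made. Values are class sums scaled to a common total of UMIs or of peak counts (counts per 1000000, CPM), intervals are exact Poisson 95% intervals that cover counting error only, and "2-fold" sets the CPM of the SLC30A8 class, with 1 added, against the averaged CPM of the remaining 4 classes, also with 1 added.

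SLC30A8 encodes ZnT8, which loads zinc into the insulin granules of pancreatic beta cells. Cancer-testis genes such as the MAGE family are normally read in male germ cells, lie mostly on the X chromosome, are kept silent elsewhere largely by DNA methylation and are switched on in a share of lung cancers. Most lung adenocarcinomas keep epithelial genes (EPCAM, CDH1, keratins), and many keep regulators of the lung lineage such as NKX2-1 and FOXA2.

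The 4 markers chose the members, so their RNA is a description. LINC01194 was at 424.9 CPM in the SLC30A8 class (408.1 to 442.2), against 17.0 CPM in the RBFOX3, 2.47 CPM in the S100A9, 0.636 CPM in the GRIA4 and 3.83 CPM in the DHRS2 class. SLC30A8 was at 338.5 CPM (323.6 to 354.0), against 2.45 CPM in the RBFOX3, 1.76 CPM in the S100A9 and 1.53 CPM in the DHRS2 class and no UMI in the GRIA4 class. MAGEA10 was at 129.6 CPM and GRM7-AS3, named as antisense to a glutamate receptor gene, at 83.5 CPM, each at most 1.40 CPM in any other class. Of the 513 members, 131 held a UMI of all 4 genes, 202 of 3, 159 of 2 and 21 of a single one. With each barcode thinned to 2000 UMIs, which left out 1 member, SLC30A8 was seen in 49.8% of the 512 members (45.4% to 54.2%) and in at most 0.803% of any other class, thinned likewise; unthinned, it was seen in 86.7% of members and in at most 1.60% of another class.

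At the edge of the rule, 24 members had exactly 2 marker UMIs, and 17 kept barcodes had a single one and no marker of another class. A further 40 members lay between 70% and 80% of the marker sums, and 42 barcodes between 60% and 70% were left out. In 272 members no other marker was seen, and the median marker sum of members was 9 UMIs. In all, 119 barcodes had at least 2 UMIs of these markers but under 70% of the sum. Their median depth was 30161 UMIs, against 7847 UMIs for members. No doublet caller was run; the 70% rule stands in its place.

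The ATAC library, which the rule did not use, set the same barcodes together. Over principal components of the peak counts, 97.1% of the 20 nearest classed neighbours of a member were members on average, and 501 of 513 members (97.7%, 95.95% to 98.8%) had most of their neighbours in their own class. The markers came from an earlier comparison between ATAC clusters of the same barcodes, so this is no independent check of the class. The mean share of own-class neighbours was 96.7% for the RBFOX3, 93.2% for the S100A9, 96.8% for the GRIA4 and 85.8% for the DHRS2 class.

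Members varied most in their mitochondrial share, which had lower and upper quartiles of 0.211% and 8.73% about a median of 0.463%. Under 2% lay 322 members (62.8%, 58.4% to 67.0%), against 83.7% of the RBFOX3, 9% of the S100A9, 13.1% of the GRIA4 and 32.4% of the DHRS2 class. Those 322 members had a median of 6147.5 UMIs and 19697.5 peak counts, and the 191 others a median of 15201 UMIs and 14131 peak counts. SLC30A8 was at 412.2 CPM (386.0 to 439.8) in the members under 2% and at 290.8 CPM (273.0 to 309.4) in the others, while MAGEA10 ran the other way, at 66.9 CPM (56.6 to 78.6) under 2% and 170.3 CPM (156.8 to 184.7) in the others. Both genes chose the members, at a minimum of 2 marker UMIs whatever the depth, so these values are a description. ACTB, which encodes cytoplasmic actin, was at 458.0 CPM in the members under 2% and 1072 CPM in the others. The part of the mitochondrial share in the differences between classes was not tested.

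**Figure D1:**
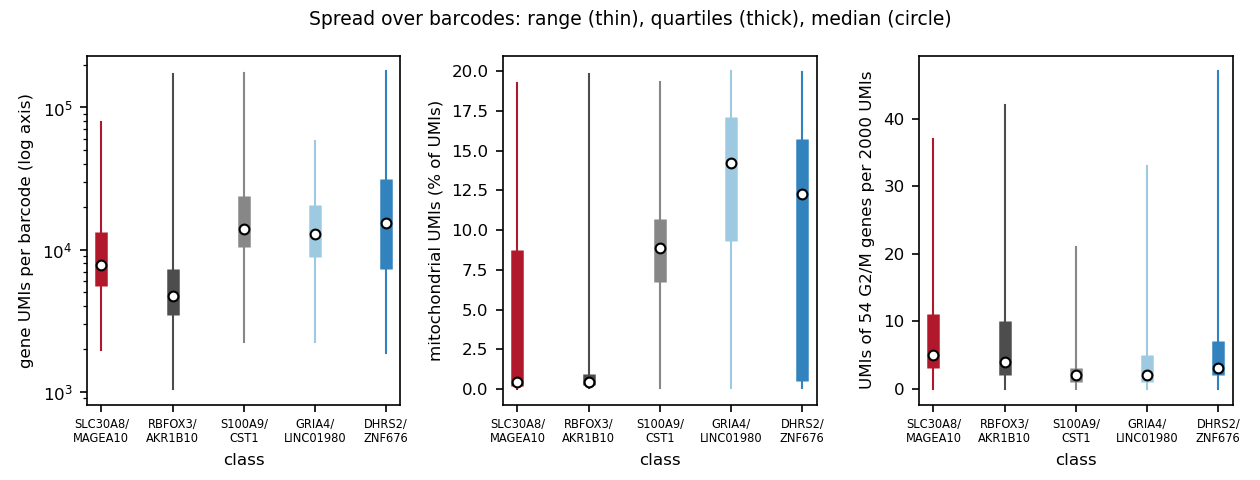
UMIs per barcode (log axis), mitochondrial share of UMIs, and UMIs of the 54 G2/M genes after thinning to 2000 UMIs, for the 5 classes; thin lines give the range, thick bars the quartiles and circles the median. The SLC30A8 class has a low median mitochondrial share (0.463%) but an upper quartile of 8.73%, and its G2/M median of 5 UMIs stands beside 4 UMIs in the RBFOX3 class.

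Outside the marker genes, 19833 genes had at least 20 UMIs over the 5 classes. Of these, 2454 (12.4%) were at least 2-fold higher in the SLC30A8 class and 3772 (19%) at least 2-fold lower, with a median log2 ratio of -0.03. Measured against the highest or the lowest other class in place of the mean, 1106 were 2-fold higher and 804 lower. Computed the same way for the other classes, 2014 genes were higher in the RBFOX3, 1750 in the S100A9, 1311 in the GRIA4 and 1067 in the DHRS2 class.

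The 20 genes with the largest lead over every other class were mostly unnamed or noncoding: 16 have clone, LINC or antisense names, against 24.8% of all measured genes. AC004949.1 (chromosome 7) had 741.4 CPM (719.1 to 764.1), against a highest value of 8.73 CPM in the other classes. LINC02055, on the same chromosome 8 as SLC30A8 but 18724040 bases away, was at 683.8 CPM and at most 10.5 CPM elsewhere. Of the coding genes among the 20, CARD18, which encodes an inhibitor of caspase-1, was at 722.6 CPM (700.7 to 745.1) in the SLC30A8 class, against 7.87 CPM in the RBFOX3, 4.58 CPM in the S100A9, 16.1 CPM in the GRIA4 and 9.18 CPM in the DHRS2 class. It was seen in 74.4% of members at 2000 UMIs (70.4% to 78.1%) and in at most 3.37% of another class; without thinning the shares were 96.3% and at most 14.1%. The glutamate and aspartate transporter gene SLC1A3 was at 261.9 CPM, the oxidised-LDL receptor gene OLR1 at 105.3 CPM and KIAA1324L at 100.5 CPM, each at most 5.40 CPM elsewhere.

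Many of these genes also had more peak counts at their start. The marker rule read RNA alone, but its markers came from a comparison of ATAC clusters, so the start counts are not independent of the choice of members. Peaks within 2000 bases of either end of a gene's deposited start region were summed, and 16948 measured genes had at least 100 counts there. Of all these, 1192 (7.03%) were 2-fold higher in the SLC30A8 class and 1734 (10.2%) 2-fold lower, with a median of 0.06. Among the 456 genes that were 4-fold higher in RNA, 277 (60.7%) had 2-fold more start counts and 12 had 2-fold fewer. Among the 1245 genes 4-fold lower in RNA, 739 (59.4%) had 2-fold fewer and 6 had 2-fold more. Across the 16948 genes, which share both libraries and are no replicates, the RNA and start log2 ratios correlated with r = 0.66. The minimum of 100 start counts was summed over all classes. A gene near silent elsewhere could therefore pass only through the SLC30A8 class, with a higher start fixed in advance. CARD18 is an example, with 168 start counts in the SLC30A8 class and at most 0.466 CPM in any other. A gene near silent in the SLC30A8 class could likewise pass only through the others. Both shares and the correlation therefore rest partly on that minimum.

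The start peak of LINC01194 (GRCh38, chr5:12574278-12575115) held 56.3 CPM of peak counts in the SLC30A8 class (50.4 to 62.8) and at most 1.36 CPM in any other class. That of SLC30A8 (chr8:116949638-116950478) held 20.9 CPM, against at most 0.577 CPM, and that of MAGEA10 (chrX:152138039-152138832) 7.76 CPM, against at most 0.453 CPM. No peak lay within 2000 bases of the start of GRM7-AS3, although its RNA was high. CARD18 had 14.7 CPM at its start, against at most 0.466 CPM. GNAS-AS1, antisense at the imprinted GNAS locus, had 66.5 CPM over 3 start peaks, against 7.63 CPM in the RBFOX3 and at most 5.69 CPM in the other classes, and 64.5 CPM of RNA, against at most 0.875 CPM. SLC1A3 departed from this: its start peaks held 18.1 CPM in the SLC30A8 class and 15.8 CPM in the S100A9 class, whereas its RNA was at 261.9 and 5.40 CPM. KIAA1324L likewise held 19.4 CPM at its start, against 10.96 CPM in the RBFOX3, 9.40 CPM in the S100A9, 6.22 CPM in the GRIA4 and 6.29 CPM in the DHRS2 class.

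**Figure D2:**
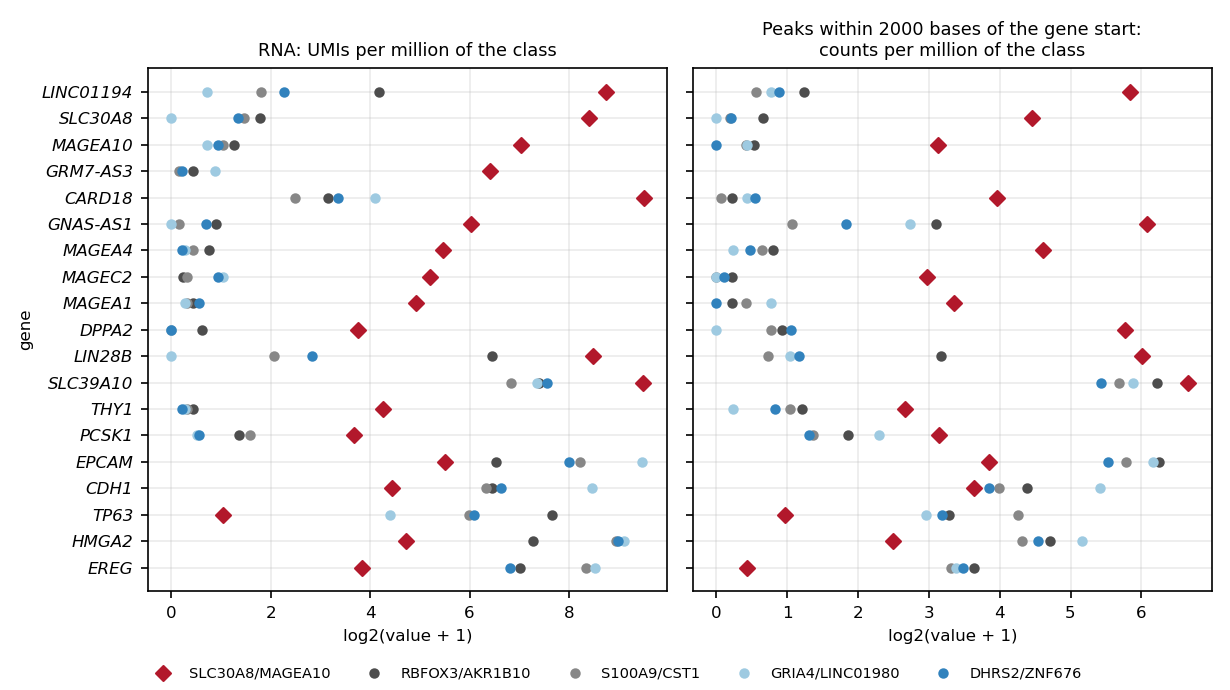
Class levels of 19 named genes as log2(CPM + 1), RNA on the left and peaks within 2000 bases of the gene start on the right; diamonds are the SLC30A8 class and circles the other 4 classes, and no point is drawn for GRM7-AS3 on the right, where it has no peak. Markers, cancer-testis and oncofetal genes lie to the right of every other class in both readouts, and EPCAM, CDH1, TP63, HMGA2 and EREG to the left.

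Several cancer-testis genes had RNA in this class and next to none in the others. Of 46 listed, 21 reached 20 UMIs over the 5 classes and 25 did not. Of the 21, 13 had fewer than 20 UMIs in the other 4 classes together and so passed only through the SLC30A8 class, and MAGEA10 chose members, so the share of the 21 that was higher is not read as a result. MAGEA4 was at 42.9 CPM (243 UMIs) in the SLC30A8 class and at most 0.700 CPM in any other. MAGEC2 followed with 36.0 CPM, MAGEA1 had 29.3 CPM and CTAG2 32.9 CPM, each at most 1.06 CPM in the other classes. MAGEA4 was seen in 31.8% of members (27.8% to 36.0%) and in at most 0.750% of another class, and in 8.203% of members at 2000 UMIs. Between 6.18 and 12.01 CPM, and at most 1.84 CPM elsewhere, lay MAGEB2, MAGEC1, MAGEA3, MAGEA6, MAGEA12, CSAG1, GAGE2A, CT45A1 and CT45A10. The MAGE-A, GAGE and CT45 genes have near-identical copies, so the split of UMIs within these families is uncertain. PRAME, at 56.2 CPM, stood near the RBFOX3 class (46.0 CPM) and above the S100A9 (0.939 CPM), GRIA4 (4.87 CPM) and DHRS2 (16.4 CPM) classes. BRDT, a testis bromodomain gene, was at 1.41 CPM, against 41.1 CPM in the GRIA4 class. The family was not read as a whole: 18 of the 46, MAGEA8, MAGEA11, SSX2 and CTAG1B among them, had no UMI in the SLC30A8 class, where 3 counts correspond to 0.530 CPM.

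The starts of 13 cancer-testis genes reached 100 counts, several of them only through the SLC30A8 class, so no count over them is given. MAGEA4 held 23.4 CPM over its 3 start peaks in the SLC30A8 class, against at most 0.742 CPM in any other. MAGEA12 and CSAG1 share 1 start peak, with 9.15 CPM against at most 0.620 CPM. The start of CT45A10 was not higher, at 1.74 CPM, against 3.49 CPM in the DHRS2 class. The promoter windows below, 250 bases before to 50 after a RefSeq start on GRCh38.p14, are shown because the deposited peak that overlaps each of them was far higher in this class than in any other. Of 139 marker, leading, cancer-testis and oncofetal genes, 92 have a RefSeq promoter by symbol; MAGEA4 has 5 starts there, of which 1 is shown. Capitals mark CGGATGTG or its reverse complement CACATCCG, a run noticed in these sequences after they were read.
MAGEA4: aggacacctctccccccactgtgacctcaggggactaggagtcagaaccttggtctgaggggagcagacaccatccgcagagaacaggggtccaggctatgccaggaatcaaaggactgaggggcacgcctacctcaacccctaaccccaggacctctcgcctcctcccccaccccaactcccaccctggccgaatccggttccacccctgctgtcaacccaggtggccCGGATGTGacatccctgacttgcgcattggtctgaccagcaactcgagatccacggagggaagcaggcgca
MAGEC2: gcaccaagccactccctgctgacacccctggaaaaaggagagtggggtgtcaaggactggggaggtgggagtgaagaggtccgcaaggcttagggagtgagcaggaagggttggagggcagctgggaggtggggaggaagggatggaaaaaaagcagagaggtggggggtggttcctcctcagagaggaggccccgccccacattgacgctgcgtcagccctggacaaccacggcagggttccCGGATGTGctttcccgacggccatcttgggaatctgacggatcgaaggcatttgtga
MAGEB2: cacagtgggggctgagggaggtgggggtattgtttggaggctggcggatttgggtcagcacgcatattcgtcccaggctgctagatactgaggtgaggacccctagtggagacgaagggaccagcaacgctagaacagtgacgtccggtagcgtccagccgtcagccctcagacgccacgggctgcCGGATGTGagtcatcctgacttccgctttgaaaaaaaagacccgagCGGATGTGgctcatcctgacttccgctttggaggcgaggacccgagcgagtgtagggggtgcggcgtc
DPPA2: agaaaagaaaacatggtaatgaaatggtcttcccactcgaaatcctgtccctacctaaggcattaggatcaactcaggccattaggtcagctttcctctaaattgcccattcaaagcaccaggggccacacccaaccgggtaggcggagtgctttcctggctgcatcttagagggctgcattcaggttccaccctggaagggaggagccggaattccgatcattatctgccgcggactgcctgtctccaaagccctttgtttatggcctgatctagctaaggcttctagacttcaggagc
They lie at chrX:151912224-151912523 (plus strand) for MAGEA4, chrX:142205241-142205540 (minus strand) for MAGEC2, chrX:30215313-30215612 (plus strand) for MAGEB2 and chr3:109316468-109316767 (minus strand) for DPPA2. The overlapping peak held 8.89 CPM for MAGEA4 (at most 0.330 CPM in another class), 6.89 CPM for MAGEC2 (at most 0.165 CPM in another class), 8.81 CPM for MAGEB2 (at most 0.543 CPM in another class) and 53.3 CPM for DPPA2 (at most 1.09 CPM in another class). The MAGEA4 and MAGEC2 windows hold 1 copy of the run each, the MAGEB2 window 2 copies, and that of DPPA2 none. Of all 35116 promoters in the RefSeq table, 234 (0.666%) hold it on either strand. That share counts single promoters, whereas the next counts take a gene as holding the run if any of its starts does. Of the 40 cancer-testis genes with a promoter, the run stands in 6 of 13 that were 2-fold higher and 9 of 27 others. Most of the others fell below the UMI minimum for a gene, and several of the higher ones passed it only through this class. The split therefore cannot relate the run to RNA level, and family members share sequence. Windows differ in CG content, with 21 CG pairs for MAGEB2 and 7 for DPPA2, beside a median of 14 over all promoters. A LIN28B window, not shown, also touched such a peak at its edge (31.6 CPM, at most 0.711 CPM in another class). The LIN28B window held 37 CG pairs and no copy of the run. A match is a description of the letters only.

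Of 14 measured oncofetal and pluripotency genes, 4 (28.6%) were 2-fold higher and 3 (21.4%) lower, against 12.4% and 19% of all genes, with a median of -0.28. Within barcodes under 2% mitochondrial UMIs 3 were higher and 5 lower, and within the others 4 and 4. LIN28B, whose protein blocks maturation of let-7 microRNAs, was at 357.6 CPM (342.2 to 373.5) in the SLC30A8 class, against 86.6 CPM in the RBFOX3, 3.17 CPM in the S100A9 and 6.12 CPM in the DHRS2 class and no UMI in the GRIA4 class. DPPA2, a gene of pluripotent and germ cells, was at 12.5 CPM (71 UMIs), against at most 0.525 CPM. Its start peak nonetheless held 53.3 CPM. DPPA2 reached the UMI minimum only through the SLC30A8 class, so the higher share of 28.6% rests partly on that minimum. SALL4, a zinc finger factor of embryonic stem cells, was at 44.5 CPM, against 15.9 CPM in the RBFOX3 and at most 5.63 CPM in the other classes. HMGA2, a let-7 target, was low at 25.4 CPM, against 153.8 CPM in the RBFOX3 and 488.1 to 552.6 CPM in the other 3 classes. IGF2BP1 was at 128.6 CPM, below the RBFOX3 class at 196.3 CPM.

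Epithelial genes were low in the SLC30A8 class. Of 25 measured, 24 (96.0%) were 2-fold lower, against 19% of all genes, with a median of -2.57, and 23 were the lowest of the 5 classes. The count was 24 both under 2% and from 2% to 20% mitochondrial UMIs. EPCAM, an epithelial adhesion protein, was at 44.2 CPM (38.9 to 49.98), against 91.8 CPM in the RBFOX3, 297.8 CPM in the S100A9, 710.0 CPM in the GRIA4 and 256.1 CPM in the DHRS2 class. The cadherin gene CDH1 was at 20.7 CPM, against 79.1 to 350.4 CPM in the others. The epithelial regulators ELF3 (8.83 CPM, others 29.7 to 247.0 CPM), EHF (3.36 CPM, others 15.6 to 178.4 CPM) and ESRP1, a splicing regulator (7.42 CPM, others 12.8 to 215.0 CPM), were low alike. The keratin KRT18 was lower but still at 145.2 CPM. At the gene starts, 20 of 25 were 2-fold lower, against 10.2% of all genes, and none higher. AP1M2, an epithelial sorting adaptor, was the exception in RNA at 42.2 CPM, against 7.39 to 26.3 CPM, while its start peak was low at 0.697 CPM.

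Genes of the lung lineage were low too. Of 14 measured, 13 (92.9%) were 2-fold lower than the mean, against 19% of all genes, and 8 were the lowest of the 5 classes. The count was 1 against the lowest other class, and 10 under 2% and 12 from 2% to 20% mitochondrial UMIs. NKX2-1 was at 4.24 CPM, against 8.57 CPM in the RBFOX3, 30.4 CPM in the S100A9, 90.5 CPM in the GRIA4 and 28.2 CPM in the DHRS2 class. FOXA2 had 1 UMI in the SLC30A8 class (0.177 CPM, 0.00447 to 0.984), against 20.8 CPM in the RBFOX3 class, which raises the mean. Its log2 ratio to the mean of the other classes was -2.94. The start peaks of FOXA2 held 5.23 CPM, against 29.7 to 113.6 CPM.

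Mesenchymal genes were more often 2-fold below than above the mean of the other classes, and the share above was near that of all genes. Of 24 measured, 4 (16.7%) were 2-fold higher and 11 (45.8%) lower, against 12.4% and 19% of all genes, with a median of -0.77. Yet 5 were the highest of the 5 classes and 2 the lowest. The list summed to 1883.1 CPM in the SLC30A8 class, above the RBFOX3 (1651.3 CPM) and GRIA4 (712.7 CPM) classes. It stood below the S100A9 (3732.9 CPM) and DHRS2 (4281.8 CPM) classes, which raise the mean. The repressor ZEB1 was at 512.3 CPM (493.8 to 531.3), against 242.3 CPM in the RBFOX3, 157.4 CPM in the S100A9, 39.6 CPM in the GRIA4 and 214.6 CPM in the DHRS2 class. THY1, a surface glycoprotein of fibroblasts and neurons, was at 18.2 CPM and at most 0.350 CPM elsewhere, and was seen in 15.6% of members and at most 0.5% of another class (3.71% and at most 0.139% at 2000 UMIs). THY1 reached the UMI minimum only through the SLC30A8 class, so the share of mesenchymal genes above the mean rests partly on that minimum. SPARC, a matrix glycoprotein, was at 197.3 CPM, close above the DHRS2 class at 173.3 CPM. Fibronectin (FN1, 185.8 CPM) and the collagen gene COL5A1 (8.30 CPM) were lower, and vimentin (VIM) stood at 284.0 CPM between the GRIA4 class (49.8 CPM) and the S100A9 class (847.0 CPM). The label "dedifferentiated" names a past state that 1 sampling time cannot show. The values above are low epithelial and lung RNA beside a mesenchymal list whose sum lay within the range of the other classes.

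**Figure D3:**
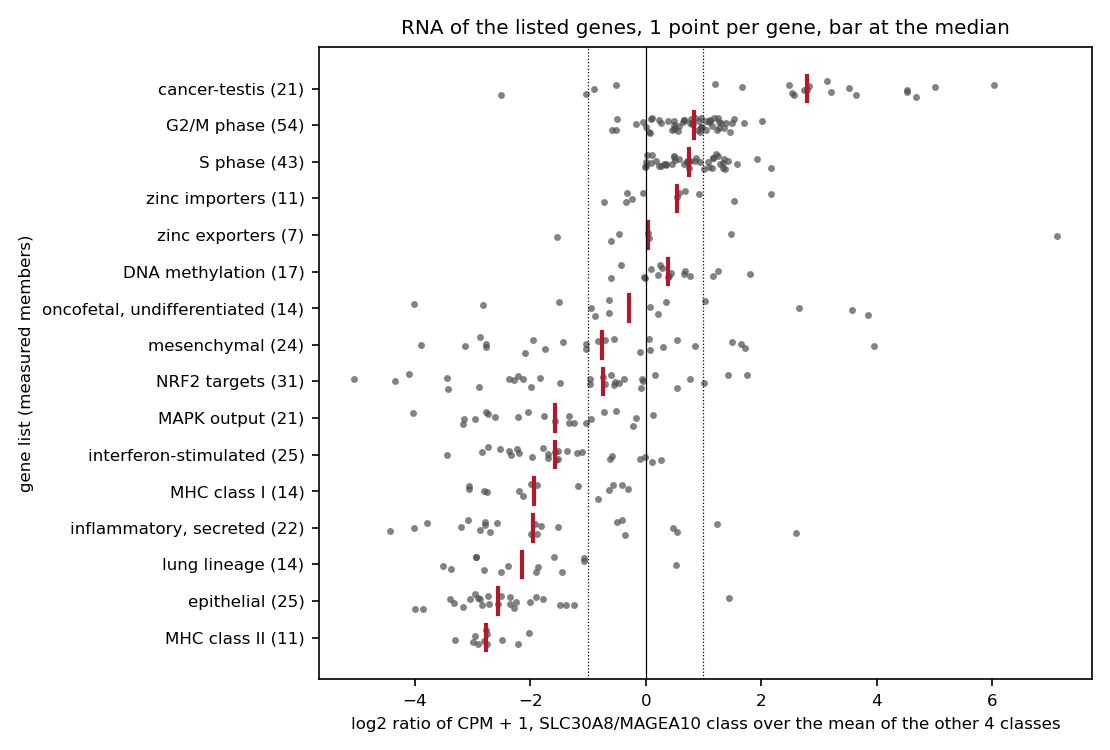
Log2 ratio of RNA (CPM + 1) in the SLC30A8 class over the mean of the other 4 classes, 1 point per measured gene of 16 lists, with a bar at each median and dotted lines at 2-fold. The epithelial median is -2.57, the mesenchymal and oncofetal lists spread to both sides of 0, and the cancer-testis bar rests on genes that partly passed the minimum through this class.

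Islet genes beside SLC30A8 showed no shared direction. Of 30 islet and endocrine genes 8 were measured, of which 2 (25%) were higher and 2 (25%) lower, against 12.4% and 19% of all genes, and 16 of the 30 had no UMI in the SLC30A8 class. PCSK1, the prohormone convertase, was at 11.8 CPM, against at most 2.00 CPM. Among zinc exporters, SLC30A7 of the Golgi was also higher, at 303.2 CPM against 80.99 to 133.3 CPM, and SLC30A4 was lower. Of 11 measured zinc importers, SLC39A10 (712.0 CPM, others 113.3 to 188.0 CPM) and SLC39A6 (121.0 CPM, others 28.9 to 50.7 CPM) were 2-fold higher and none was lower; 18.2% is near the 12.4% of all genes. The zinc-binding metallothionein MT2A was at 39.0 CPM, against 81.5 to 215.5 CPM.

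Of 17 measured DNA methylation genes, 3 (17.6%) were 2-fold higher, near the 12.4% of all genes, and none lower. TET1, which oxidises methylcytosine, was at 123.1 CPM, against 25.5 to 43.6 CPM, and the methyltransferase DNMT3B at 37.4 CPM, against 10.4 to 18.98 CPM. DNMT1, the maintenance enzyme, stood at 112.8 CPM within the range of the other classes.

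Cell cycle genes were higher than in most other classes and close to the RBFOX3 class. Of 54 G2/M genes 19 (35.2%) were 2-fold higher and none lower (median 0.84), and of 43 S phase genes 17 (39.5%) were higher and none lower (median 0.75), against 12.4% of all genes. Against the highest other class 4 of each list were higher. EXO1, a repair exonuclease, was at 95.9 CPM, against 5.05 to 37.6 CPM. The kinase gene BUB1 was at 104.7 CPM, against 9.15 to 54.9 CPM. MKI67 was at 81.9 CPM, against 79.4 CPM in the RBFOX3 and 92.3 CPM in the DHRS2 class. At 2000 UMIs, 28.9% of members (25.01% to 33.04%) held at least 10 UMIs of the G2/M genes, against 26.5% of the RBFOX3 (23.3% to 29.9%), 2.25% of the S100A9, 12.1% of the GRIA4 and 17.7% of the DHRS2 class; free RNA also adds to such counts. The G2/M count moved with the mitochondrial share, at 14 genes under 2% and 30 from 2% to 20%, and the S phase count was 12 and 18. With the S100A9 class left out of the mean 9 G2/M genes were higher, and with the RBFOX3 class left out 30.

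Genes of antigen presentation, the interferon response and MAPK signalling were mostly 2-fold below the mean of the other classes, as 19% of all genes were. Of 14 MHC class I genes 9 (64.3%) were 2-fold lower, and 9 were the lowest of the 5 classes, yet the list summed to 1486.6 CPM in the SLC30A8 class, against 1109.4 CPM in the RBFOX3 and at least 2210.4 CPM in the other classes. HLA-B was at 73.1 CPM, against 149.7 CPM in the RBFOX3, 1604.6 CPM in the S100A9, 275.6 CPM in the GRIA4 and 443.0 CPM in the DHRS2 class. B2M, the light chain, stood at 863.0 CPM, above the RBFOX3 class (470.0 CPM). The 11 MHC class II genes each lay 2-fold below the mean, where CD74, the invariant chain, was at 2430.7 CPM in the S100A9 class; with that class left out of the mean 3 did, and against the lowest other class none did. Their sum was 227.3 CPM in the SLC30A8 class, against 165.3 CPM in the GRIA4 and 432.8 CPM in the RBFOX3 class. Of 25 interferon-stimulated genes 19 (76%) were lower and none higher, with 16 under 2% and 19 from 2% to 20% mitochondrial UMIs, but 5 against the lowest other class and 12 with a pseudocount of 5. Their sum was 561.2 CPM in the SLC30A8 class, against 467.2 CPM in the RBFOX3 and at least 817.2 CPM in the other classes. Of 21 MAPK output genes 15 (71.4%) were lower, and 8 were so against the lowest other class. The growth factor gene EREG was at 13.2 CPM, against 110.8 to 365.9 CPM, and the phosphatase gene DUSP6 at 4.06 CPM, against 14.3 to 117.3 CPM. HLA genes have near-identical copies, so their split is uncertain.

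The 10 genes furthest below every other class included TP63, a factor of basal epithelium, at 1.06 CPM (6 UMIs), against 202.0 CPM in the RBFOX3, 62.4 CPM in the S100A9, 20.1 CPM in the GRIA4 and 66.6 CPM in the DHRS2 class. The zinc finger genes ZNF516 (1.77 CPM, others 43.4 to 61.4 CPM) and ZNF254 (5.65 CPM, others 88.6 to 158.6 CPM) were low in RNA and at their starts. TFPI, which inhibits tissue factor, was at 36.4 CPM, against 375.4 to 596.0 CPM. EPS8, an EGFR substrate, was at 24.5 CPM, against 256.7 to 494.1 CPM, but its start peaks were at 40.3 CPM, within the range of the others. GCNT2, a branching enzyme of glycans, was low in RNA with start counts of at most 1.86 CPM in every class.

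**Figure D4:**
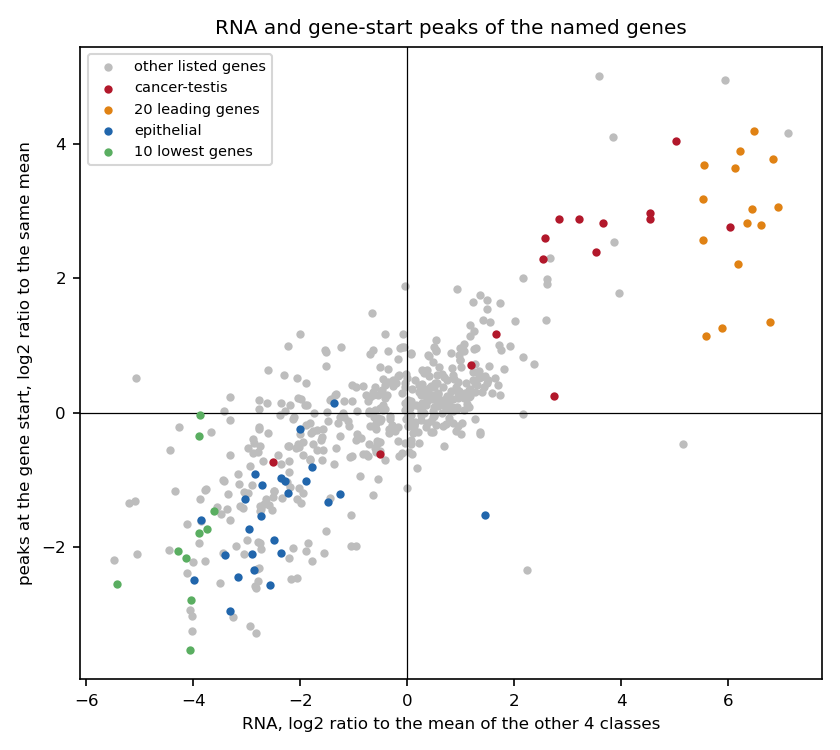
RNA log2 ratio (horizontal) and start-peak log2 ratio (vertical) of the named genes, both against the mean of the other 4 classes. Cancer-testis and leading genes lie mostly at the upper right and epithelial genes at the lower left; TP63 is at -5.43 and -2.55.

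Over the whole genome, 107414 peaks had at least 100 counts. Of these 2335 (2.17%) were 4-fold higher in the SLC30A8 class and 4731 (4.4%) 4-fold lower, with a median of -0.33. Of the higher ones 83.9% lay over 2000 bases from any start, against 75.5% of all measured peaks, and the other classes' own higher peaks gave 84.2% to 88.0%. The peak with the largest lead, chr7:69256428-69257339, held 166.6 CPM (156.2 to 177.5), against 1.44 CPM in the RBFOX3, 3.05 CPM in the S100A9, 1.42 CPM in the GRIA4 and 1.63 CPM in the DHRS2 class. It had a count in 74.9% of members and lies 46823 bases from the nearest start. The peak chr20:11791524-11792401 held 89.2 CPM, against at most 2.10 CPM in another class, chr15:98899384-98900277 75.5 CPM, against at most 1.11 CPM, and chr12:101935790-101936685 69.3 CPM, against at most 1.48 CPM. Of the 25 peaks with the largest lead, 19 lay over 2000 bases from any start.

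Peak counts and RNA were also summed along the genome. Of 524 windows of 5 Mb, 13 had at least 2-fold more peak counts than the median of the other classes and 15 at least 2-fold fewer. Of the 13 higher windows, 12 also had 2-fold more RNA. Of the 15 lower windows, 8 also had 2-fold less RNA, and 13 had RNA below the median of the other classes. The highest window in peak counts was chromosome 12 from 25 to 30 Mb, with 5557.8 CPM of peak counts in the SLC30A8 class, against 1288.1 in the RBFOX3, 1503.5 in the S100A9, 1792 in the GRIA4 and 1134 in the DHRS2 class. From 21 to 35 Mb, bounds chosen after the values were seen, 62 of 99 genes were 2-fold higher and 13 lower, against 12.4% and 19% of all genes.

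In that stretch of chromosome 12, ITPR2, a calcium channel of the endoplasmic reticulum, was at 2106.3 CPM, against 65.6 to 186.5 CPM, and was seen in 93.4% of members at 2000 UMIs, against 8.75% to 28.9% of the other classes. The aminotransferase gene BCAT1, in the same stretch, was lower at 20.8 CPM, against 42.6 to 76.5 CPM. Within bounds also chosen after the values were seen, 147 of 268 genes were higher and 27 lower on the short arm of chromosome 1 beyond 84 Mb, NRAS among the higher ones at 39.7 CPM against 9.45 to 14.2 CPM. Peaks of that stretch held 20697.9 CPM in the SLC30A8 class, 12144.4 CPM in the GRIA4 class and 7075.1 to 8781.5 CPM in the remaining classes. On chromosome 20 from 38 to 65 Mb 108 of 244 genes were higher and 30 lower. Both of these stretches stand against 12.4% of all genes 2-fold higher and 19% lower.

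At the other end, all 11 measured genes on chromosome 9 from 21 to 23 Mb, a stretch chosen the same way, were lower, against 19% of all genes. Its peaks held 10.5 CPM, against 304.5 CPM in the RBFOX3, 23.9 CPM in the S100A9, 395.4 CPM in the GRIA4 and 192.6 CPM in the DHRS2 class. CDKN2A, an inhibitor of cell cycle kinases in that stretch, was at 10.9 CPM, near the S100A9 class (14.1 CPM) and below the RBFOX3 (30.8 CPM), GRIA4 (314.0 CPM) and DHRS2 (91.4 CPM) classes. On chromosome 19 from 22 to 25 Mb 13 of 15 genes were lower, against the same 19%, in a stretch chosen likewise. DNA copy number was not measured, so the number of copies and the accessibility of each copy cannot be told apart in these windows.

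**Figure D5:**
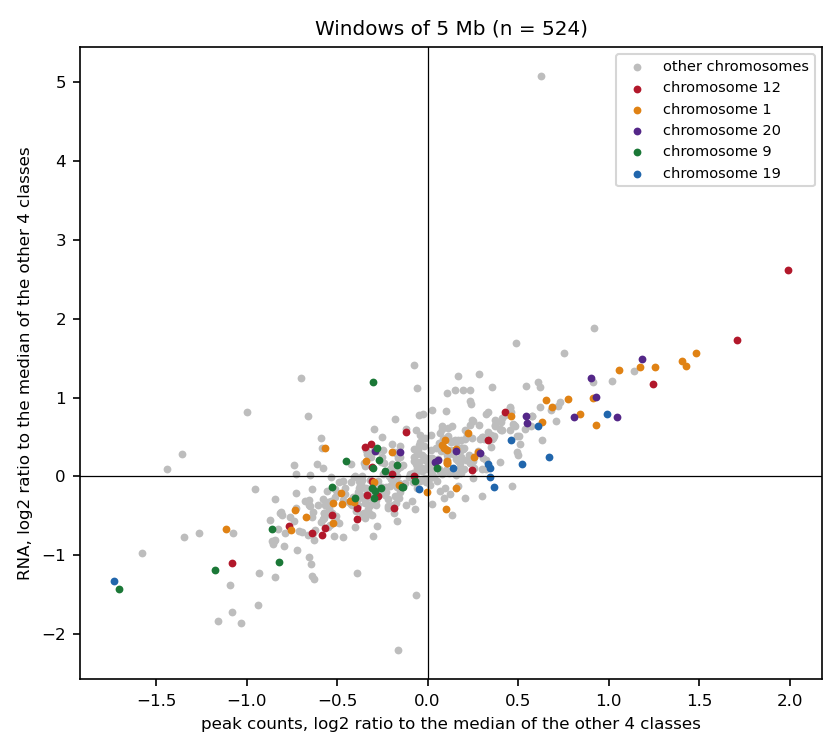
Windows of 5 Mb (n = 524), log2 ratio of peak counts (horizontal) and of RNA (vertical) in the SLC30A8 class over the median of the other 4 classes. The window of chromosome 12 from 25 to 30 Mb is furthest right at 1.99 (RNA 2.62), and the lowest, on chromosome 19 from 20 to 25 Mb, is at -1.73 (RNA -1.33).

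Markers of other cell types did not set the class apart. The 12 immune genes summed to 6.36 CPM in the SLC30A8 class, against 5.598 to 19.75 CPM elsewhere, and 6 of the 12 had no UMI. The 8 endothelial genes summed to 16.9 CPM, against 5.30 to 98.5 CPM, and the 6 fibroblast genes to 8.30 CPM, against 10.2 to 147.4 CPM. Marker genes recalled for the 5 lines did not place the class: none of those for A549, HCC827, H1975 or H2228 and 1 of 9 for H838 was highest in it, so it is named here by its genes.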

How the data were processed

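One 10x Multiome capture of the mixed lines gave 1 RNA and 1 ATAC library, and the deposited matrix holds counts of UMIs for 36601 genes and counts for 187920 peaks in the same 3298 barcodes. Per the submitters' processing notes, the authors used Cell Ranger ARC 2.0.0 on GRCh38, and 1 peak set serves all barcodes. Entries of peak counts are even in 83.3% of cases, so their Poisson intervals were made on counts divided by 2. Left out were 494 barcodes, of which 378 exceeded 20% mitochondrial UMIs, 62 had under 1000 UMIs and 76 under 1000 peak counts (some failed several limits). Class sums held 5662572 UMIs and 11468925 peak counts for the SLC30A8 class, and from 4719918 to 8520247 UMIs and from 5627110 to 24259787 peak counts for the others.

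Members, gene lists and tests were chosen with earlier results of these data known. Counts were summed per class, scaled to CPM and compared as log2(CPM + 1) with a pseudocount of 1, with minimums of 20 UMIs for a gene and 100 counts for a peak; the 21 marker genes of all classes were left out of the counts over all genes. Named genes are the 20 with the largest lead over the highest other class, the 10 furthest below the lowest other class, and the list members with the largest changes; others were named after their values were seen. Whether counting was strand-specific is not stated, so the split of UMIs between antisense genes, GRM7-AS3 and GNAS-AS1 among them, and their partners was not checked. With 1 library of each kind there is no test. Scripts were tested on simulated data. Python 3.11.15, numpy 2.4.6, scipy 1.17.1, scikit-learn 1.9.0 and, for TMM scaling factors as an alternative, edgeR 4.0.16 were used. Further alternatives changed the marker share, depth, mitochondrial range, pseudocount, fold, distance and classes in the mean.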

Additional observations from a re-analysis of the deposited data

Results flagged for a closer look

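Among barcodes outside the kept set or without a class, the marks of the SLC30A8 class were seen as well. Of 356 barcodes with enough UMIs and peak counts but over 20% mitochondrial UMIs, 5 (1.40%, exact binomial 95% interval 0.458% to 3.25%) met its marker rule. Of the 598 kept barcodes with no class, 101 (16.9%, 13.97% to 20.14%) had most of their nearest classed ATAC neighbours in the SLC30A8 class. The same count was 69 for the RBFOX3, 138 for the S100A9, 143 for the GRIA4 and 84 for the DHRS2 class, so it is not particular to this class. Of the 101, 53 held 0 or 1 UMI of the SLC30A8 class markers. The median depth of all 101 was 4793 UMIs, against 7847 UMIs for members.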

How the results depend on the processing

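No paired analysis was possible because there is 1 library of each kind. Against the highest or lowest other class in place of the mean, genes came to 1106 higher and 804 lower, peaks to 1295 higher (85.6% distal) and 294 lower, and list counts to 10 epithelial, 1 lung, 0 MHC class II, 5 interferon-stimulated and 8 MAPK genes lower and 4 S phase and 4 G2/M genes higher. A pseudocount of 5 gave 1474 genes higher and 2000 lower, 466 peaks higher and 239 lower, and 12 interferon-stimulated genes lower. A pseudocount of 0.1 gave 3658 peaks higher and 17156 lower. Peaks 4-fold lower numbered 7263 with a marker share of at least 90%, 7125 without barcodes over 2 times their class median UMIs and 9095 after thinning. At 2-fold, 8689 peaks were higher and 27426 lower; at 4-fold, 624 genes were higher and 1442 lower. Without the RBFOX3 class in the mean, 82.1% of higher peaks were distal, 30 G2/M genes were higher, and ALDH1A1 was at 0.08 in place of -5.09 on the log2 scale. Without the S100A9 class 9 G2/M and 3 MHC class II genes passed, without the DHRS2 class 85.6% of higher peaks were distal, and with 10000 bases in place of 2000 62.3% were. The causes were not tested. Chosen after seeing the data, the ranges under 2% and from 2% to 20% mitochondrial UMIs held 322 and 191 members, with 30 G2/M genes higher in the second. In 246 other pairs of a main result and a setting, counts stayed within 1.5 times the main count, and shares within their counting interval or the spread over members. TMM scaling moved the median log2 ratio to -0.11 for genes and -0.23 for peaks. Motif shares in the leading peaks were not run, since no genome was used here. Depth limits the low genes: 3 counts correspond to 0.530 CPM in the SLC30A8 class.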

Other observations

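Neural genes were divided in the SLC30A8 class, with 9 of 23 measured 2-fold higher and 10 lower, against 12.4% and 19% of all genes. The serotonin receptor gene HTR1E was at 51.9 CPM, against at most 1.05 CPM in any other class, while its start peak held 1.40 CPM, against up to 4.91 CPM in the S100A9 class. HTR1E reached the UMI minimum, set over the 5 classes, only through the SLC30A8 class, so the higher share rests partly on that minimum. SNAP25, of the synaptic fusion complex, was at 251.8 CPM, against 345.3 CPM in the RBFOX3 and at most 7.35 CPM in the other classes. SYT1, the calcium sensor of synaptic vesicles, was at 25.6 CPM, against 174.2 to 741.1 CPM. Of 22 measured inflammatory and secreted genes, 15 (68.2%) were lower and 2 (9.09%) higher, against 19% and 12.4% of all genes. The higher ones were the protease inhibitor SLPI, at 612.1 CPM against 36.0 to 232.4 CPM, and the chemokine CCL2, at 27.0 CPM against 1.70 to 25 CPM. The S100A9 class, where this list summed to 17666 CPM, raises the mean, and 8 genes were the lowest of the 5 classes. The sum was 1620.8 CPM in the SLC30A8 class, against 1453.4 CPM in the RBFOX3, 1123.7 CPM in the GRIA4 and 2040.7 CPM in the DHRS2 class. Of 31 NRF2 targets 13 (41.9%) were lower than a mean that the RBFOX3 class raises: AKR1B10 was at 4.59 CPM in the SLC30A8 class, against 704.6 CPM in the RBFOX3 and 2.75 to 21.8 CPM in the other classes.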
